A study of Homo sapiens with 6 samples.

Results

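SMAD6 and SMAD3 lie 364 kb apart, start to start, on the long arm of chromosome 15, and contacts around them were followed in 6 HiChIP libraries of the G401 cell line. The locus was taken as chr15:66950000-67550000 of the hg19 build. It holds the SMAD6 body at chr15:66994674-67074338, the SMAD3 body at chr15:67358195-67487533 and 284 kb between the bodies. The bodies run over bands 15q22.31 to 15q22.33, and the last 50 kb of the locus are in 15q23. Every listed loop with either anchor overlapping the locus was taken, which gave 2456 loops of the 736589 listed over the 6 libraries. The locus was chosen with measured values in view, because a pair of ARID1A anchors without H3K27ac lies between the genes. ARID1A is therefore only described against H3K27ac here, with no test.

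HiChIP joins chromosome conformation capture to immunoprecipitation, so that a loop is a pair of anchors and its strength is the number of paired-end tags (PETs) between them. G401 is a human rhabdoid tumour cell line that has lost SMARCB1, which belongs to the core of SWI/SNF, a complex that moves nucleosomes. The cells used carried an inducible SMARCB1, were kept in Tet-free serum, and received doxycycline at 1 μg/ml to switch it on. The labels do not say whether the line is a single clone. The ARID1A libraries (n = 2) were made at day 3 of doxycycline and are labelled SMARCB1 +/+, and ARID1A is itself a SWI/SNF subunit. The H3K27ac day 3 libraries (n = 2) were also SMARCB1 +/+ with doxycycline. The H3K27ac day 0 libraries (n = 2) are labelled SMARCB1 -/- and had no doxycycline. H3K27ac marks active enhancers and promoters. SMARCB1, doxycycline and 3 days of culture changed together, and these cannot be told apart. Whether replicates were separate cultures is not in the labels, so p-values measure the spread between these libraries only, which may be technical.

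SMAD3 carries signals from TGF-beta and activin receptors: the receptors phosphorylate it, it binds SMAD4, and the complex enters the nucleus to act on target genes. SMAD6 is an inhibitory SMAD that restrains mainly the BMP branch of the family, and it is a known feedback target of that branch. AP-1, the factor named in the title of the study, is a known partner of SMAD3 at regulatory elements. In the RefSeq order of genes, LETM1P1, LOC105370869, LOC105376718, SMASR, SMAD3-DT and HMGN2P47 stand between SMAD6 and SMAD3. No hg19 annotation was used here, so none of these was assigned to an anchor.

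The promoter sequences of both genes are shown because anchors at their starts carry the main comparisons. They come from RefSeq on GRCh38.p14, on the plus strand, as 300 bases that begin 250 before a start, and their positions were not converted to hg19. SMAD6 had 1 such start, at chr15:66701986-66702285. SMAD3 had 5, and the first, at chr15:67065352-67065651, and the third, at chr15:67125492-67125791, are printed. The third lies 60.1 kb past the first, while the day 3 H3K27ac anchor at the SMAD3 gene start ended 9.83 kb past that start. Another day 3 H3K27ac anchor, chr15:67410380-67434045, ran from 52.2 to 75.85 kb past the gene start. An ARID1A anchor, chr15:67410886-67419390, ran from 52.7 to 61.2 kb past it. Both cover that distance, though the third start itself was not converted to hg19, and neither overlapped a day 0 H3K27ac anchor. The third start is printed as the only member of the 5 with the AP-1 site. Capitals mark 2 of the motifs searched on both strands, TGAGTCA, the AP-1 site, and GTCTAGAC, a palindrome of SMAD boxes.

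SMAD6 promoter: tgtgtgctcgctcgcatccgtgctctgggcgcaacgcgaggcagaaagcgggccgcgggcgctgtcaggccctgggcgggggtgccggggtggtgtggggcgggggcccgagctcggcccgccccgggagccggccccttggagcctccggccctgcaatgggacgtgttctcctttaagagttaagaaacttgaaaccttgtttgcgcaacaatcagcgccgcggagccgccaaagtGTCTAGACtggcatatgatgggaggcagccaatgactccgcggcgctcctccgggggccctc

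SMAD3 promoter of the first start: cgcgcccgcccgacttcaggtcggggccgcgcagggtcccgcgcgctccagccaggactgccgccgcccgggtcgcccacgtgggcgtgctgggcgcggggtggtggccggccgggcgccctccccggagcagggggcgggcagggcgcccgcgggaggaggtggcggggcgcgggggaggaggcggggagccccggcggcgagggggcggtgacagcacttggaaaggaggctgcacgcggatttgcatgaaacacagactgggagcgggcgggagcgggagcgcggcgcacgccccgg

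SMAD3 promoter of the third start: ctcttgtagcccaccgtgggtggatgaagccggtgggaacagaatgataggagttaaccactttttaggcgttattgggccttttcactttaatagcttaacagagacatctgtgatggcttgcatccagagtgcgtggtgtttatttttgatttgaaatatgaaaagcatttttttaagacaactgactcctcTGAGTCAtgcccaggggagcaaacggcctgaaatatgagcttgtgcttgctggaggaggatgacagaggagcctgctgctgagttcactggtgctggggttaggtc

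The GC content was 68.0% at SMAD6, 80.3% at the first SMAD3 start and 47.0% at the third, against a median of 58.7% over all 35116 promoters in the table. TGAGTCA or its complement TGACTCA was in 1 of the 5 SMAD3 promoters, the third, 56 bases before the start, and not in that of SMAD6. It was in 4.95% of all promoters. GTCTAGAC was in the SMAD6 promoter, 12 bases before the start, in none of the 5 of SMAD3, and in 0.202% of all promoters. GTCTAGAC was searched after the SMAD6 promoter had been read. CAGAC, the short SMAD box, with its complement GTCTG, was in 3 of the 5 SMAD3 promoters, not in that of SMAD6, and in 45.3% of all promoters; it is not capitalised above. These matches describe letters only and do not show binding.

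The libraries held 157578 and 164053 loops (435210 and 467487 PETs) for ARID1A, 162010 and 162167 loops (929128 and 982141 PETs) for H3K27ac at day 3, and 46677 and 44104 loops (301703 and 253502 PETs) for H3K27ac at day 0. Levels are given as PETs per 1000000 PETs of the library (CPM). Between replicates, 98.4% to 99.7% of anchors had identical coordinates, and between libraries of different groups 1.74% to 3.48% did, so anchors appear to have been called once per group. Where a group has no anchor, contacts were not measured, and the level there is unknown.

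The locus held a similar share of each library. It took 0.406% and 0.390% of all PETs in the ARID1A libraries, 0.377% and 0.377% in H3K27ac at day 3, and 0.364% and 0.361% in H3K27ac at day 0. The H3K27ac share was 1.04 times as high at day 3 as at day 0, with no overlap between the libraries. The exact two-sided permutation p was 0.333, the smallest that 2 libraries against 2 can give, and this p holds for each comparison of H3K27ac library values between day 3 and day 0 below in which the libraries do not overlap.

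The anchors of the locus differed more than its share. ARID1A had 20 anchors covering 349 kb, H3K27ac at day 3 had 19 covering 237 kb, and H3K27ac at day 0 had 13 covering 114 kb. The SMAD3 body had 6 anchors in ARID1A, 7 in H3K27ac at day 3 and 2 in H3K27ac at day 0. The SMAD6 body had a single ARID1A anchor of 115 kb, 3 H3K27ac anchors at day 3 and 5 at day 0. Between the bodies were 9 ARID1A anchors, 6 of H3K27ac at day 3 and 5 of H3K27ac at day 0.

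**Figure D1:**
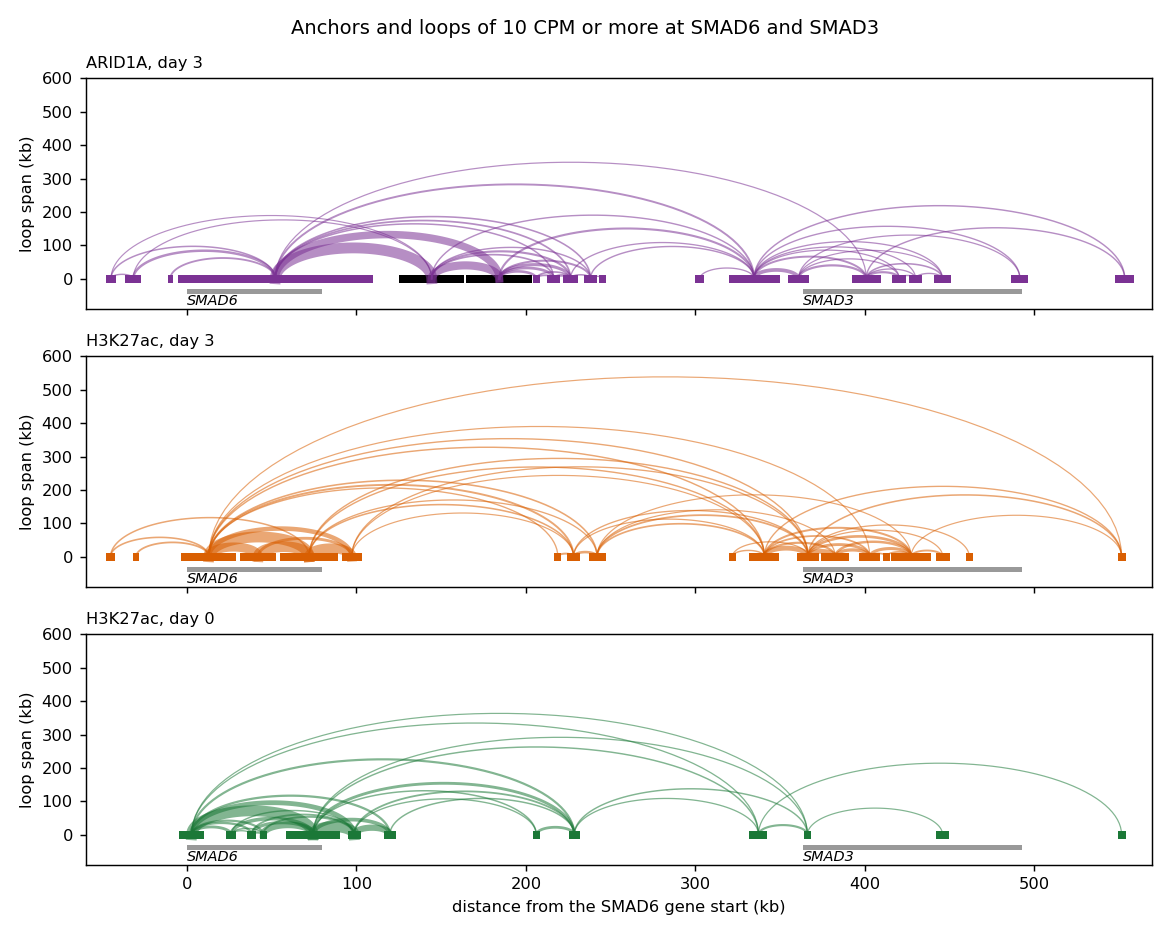
Called anchors (boxes) and loops of 10 CPM or more with both ends in the locus (arcs; mean of 2 libraries, line width by CPM) for ARID1A at day 3, H3K27ac at day 3 and H3K27ac at day 0. The horizontal axis is distance from the SMAD6 gene start in kb, the height of an arc is its span in kb, grey bars are the gene bodies and black boxes are the pair of ARID1A anchors without H3K27ac. The SMAD3 body has 7 H3K27ac anchors at day 3 against 2 at day 0.

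SMAD3 had more H3K27ac contacts at day 3, spread over more of its body. Anchors on the SMAD3 body held 942 and 849 CPM in ARID1A, 1383 and 1303 CPM in H3K27ac at day 3, and 285 and 308 CPM in H3K27ac at day 0. In counts these were 410 and 397 PETs in ARID1A, 1285 and 1280 PETs in H3K27ac at day 3, and 86 and 78 PETs in H3K27ac at day 0. The H3K27ac level at day 3 was 4.53 times that at day 0 (1343 ± 56.4 CPM against 296 ± 16.0 CPM, SD, n = 2 each), and the libraries did not overlap.

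The called width moved with that level. SMAD3 anchors covered 66.3 kb in ARID1A, 82.8 kb in H3K27ac at day 3 and 12.1 kb in H3K27ac at day 0. Per kb of called anchor, the level was 14.2 and 12.8 CPM in ARID1A, 16.7 and 15.7 CPM in H3K27ac at day 3, and 23.5 and 25.3 CPM in H3K27ac at day 0. The direction between the days thus differs between the total and the level per kb, and the part of the called width in the total was not tested. Of the 7 day 3 anchors on SMAD3, 5 had no anchor at day 0, and 2 of those 5 overlapped an ARID1A anchor. Over the genome, 57.4% of the called H3K27ac anchors of day 3 had no day 0 anchor, and 73.3% of those overlapped an ARID1A anchor.

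Contacts inside the SMAD3 body were also more numerous at day 3. ARID1A had 97 and 67 PETs joining SMAD3 anchors to each other, H3K27ac at day 3 had 452 and 444, and H3K27ac at day 0 had 3 and 3. With only 2 anchors called on the body at day 0, a single pair could be joined there. Contacts of SMAD3 with anchors between the bodies took 278 and 293 CPM in ARID1A, 350 and 363 CPM in H3K27ac at day 3, and 59.7 and 90.7 CPM in H3K27ac at day 0.

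SMAD6 went the other way in total H3K27ac level. Its anchors held 1229 and 1194 CPM in ARID1A, 1839 and 1849 CPM in H3K27ac at day 3, and 2174 and 2114 CPM in H3K27ac at day 0. The H3K27ac level at day 3 was 0.860 times that at day 0 (1844 ± 6.83 CPM against 2144 ± 42.4 CPM, SD, n = 2 each). Counting only loops with a deposited value of 0.01 or less turned this ratio to 1.23. On the log2 scale the ratio over all loops is -0.22. With library totals, the median anchor of the genome called at both times was at -0.56, and 51.8% of such anchors were lower. That fit counts only loops between anchors called at both times. With TMM, the SMAD6 start anchor and the next one were called higher, as given below. Called SMAD6 anchors covered 115 kb in ARID1A, 88.0 kb in H3K27ac at day 3 and 61.6 kb in H3K27ac at day 0.

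The balance of the genes in H3K27ac differed between the days. The SMAD3 level was 0.766 and 0.711 of the SMAD6 level in ARID1A, 0.752 and 0.705 in H3K27ac at day 3, and 0.131 and 0.146 in H3K27ac at day 0. Both H3K27ac libraries of day 3 were above both of day 0, and ARID1A had no day 0 library. The balance depends on which anchors were called. H3K27ac had 7 SMAD3 and 3 SMAD6 anchors at day 3, against 2 and 5 at day 0. The part of anchor calling in it was not tested. Anchors between the bodies held 2525 and 2558 CPM in ARID1A, 1371 and 1438 CPM in H3K27ac at day 3, and 1843 and 1850 CPM in H3K27ac at day 0.

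Loops joining the SMAD6 body to the SMAD3 body held 0.622% to 3.17% of the PETs of the locus, by library. They held 11 and 22 PETs in ARID1A (25.3 and 47.1 CPM), 111 and 101 PETs in H3K27ac at day 3 (119 and 103 CPM), and 12 and 8 PETs in H3K27ac at day 0 (39.8 and 31.6 CPM). The H3K27ac level was 3.12 times as high at day 3 as at day 0, spread over 17 and 19 loops against 5 and 5. Called anchors limit which loops can be listed. SMAD6 and SMAD3 had 3 and 7 H3K27ac anchors at day 3, against 5 and 2 at day 0. The part of anchor calling in this ratio was not tested. In the joining loops tested below, between anchors called at both times, no difference was detected. As a share of all SMAD3 PETs the order was reversed: 8.64% and 7.89% in H3K27ac at day 3, against 14% and 10.3% in H3K27ac at day 0. As a share of all SMAD6 PETs it was not: 6.50% and 5.56% in H3K27ac at day 3, against 1.83% and 1.49% in H3K27ac at day 0. The joining loop with most PETs in each group was also set against all loops of similar span in its library. It held more PETs than 97.5% and 92.4% of them in ARID1A. For H3K27ac these shares were 96.0% and 94.1% at day 3, and 78.5% and 38.9% at day 0. Anchor width and library depth were not adjusted for.

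**Figure D2:**
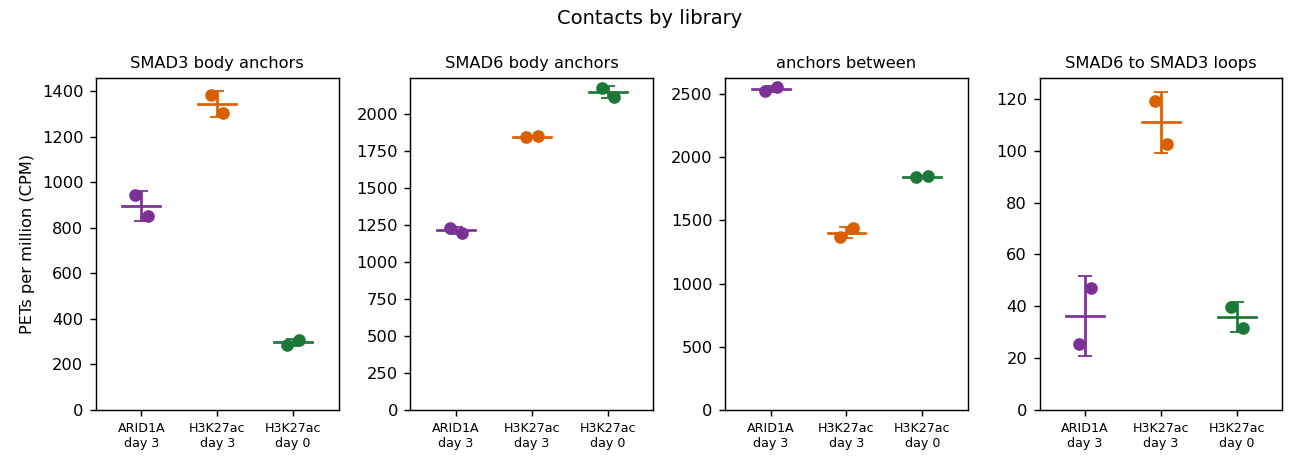
CPM in each library (points), with group mean and SD (bars, n = 2), for anchors on the SMAD3 body, on the SMAD6 body and between them, and for loops joining the bodies, in ARID1A at day 3, H3K27ac at day 3 and H3K27ac at day 0. H3K27ac at SMAD3 lies at 1383 and 1303 CPM at day 3, above 285 and 308 CPM at day 0. The CPM at SMAD6 is lower at day 3. With library totals, the median anchor called at both times is also lower, counting only loops between such anchors, while the CPM shown counts all listed loops.

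H3K27ac at day 3 was tested against day 0 at anchors called at both times, so that each was measured in all 4 libraries. PETs were summed over loops whose anchors were both called at both times, and the edgeR quasi-likelihood test was fitted over all 6500 such anchors of the genome. Called anchors have a Benjamini-Hochberg adjusted p under 0.05. Of 21 merged H3K27ac anchors in the locus, 9 were called at both times. At day 3, 4 of them were higher and 1 was lower, against backgrounds of 19.4% higher and 17.2% lower over all tested anchors. The remaining 4 were not called. The median log2 fold change was 0.12 over the 9 and -0.01 over all anchors.

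The SMAD3 start had the largest fitted change of the 9. The anchor chr15:67354571-67368028, which spans the start, held 250 and 281 PETs at day 3, against 53 and 51 at day 0. These are 269 and 286 CPM at day 3, against 176 and 201 CPM at day 0, with no overlap. The log2 fold change was 1.12 ± 0.15 (SE; edgeR quasi-likelihood test, adjusted p = 4.84e-09). With library totals in place of TMM on the tested PETs it was 0.57. The anchor was called 13457 bp wide at day 3, against 4104 bp at day 0, when its called part began 0.705 kb past the start. Per called kb it held 20.6 CPM at day 3, against 45.9 CPM at day 0.

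At SMAD6, the anchor over the start and the next one passed the test as higher, and the third did not. The anchor over the start, chr15:66989913-67023726, held 670 and 776 PETs at day 3, against 250 and 217 at day 0. Its log2 fold change was 0.40 ± 0.08 (edgeR, adjusted p = 7.36e-05), but its CPM was lower at day 3 (756 ± 48.8 against 842 ± 19.4) and library totals turned the log2 fold change to -0.15. The TMM fit scales to PETs at anchors called at both times, and library totals shift the median anchor of the genome to -0.56 on the log2 scale.

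The anchor inside the SMAD6 body, chr15:67025833-67047433, was higher on both scales. It held 475 and 542 PETs at day 3, against 117 and 111 at day 0, with a log2 fold change of 0.93 ± 0.11 (edgeR, adjusted p = 7.09e-11) and 0.37 with library totals. The third, chr15:67049694-67084801, held 808 and 818 PETs at day 3, against 349 and 291 at day 0. Its log2 fold change was 0.12 ± 0.08 (edgeR, adjusted p = 0.230), and it was -0.44 and past the threshold with library totals.

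Between the bodies, the anchor nearest to SMAD3, chr15:67326708-67344387, held 201 and 273 PETs at day 3, against 81 and 59 at day 0. Its log2 fold change was 0.53 ± 0.15 (edgeR, adjusted p = 0.00282), and it was -0.02 with library totals. The call was lost without replicate 2 of day 3 (adjusted p = 0.0981, edgeR) and without replicate 2 of day 0 (adjusted p = 0.0515, edgeR). The anchor chr15:67219108-67226609 was lower, with 130 and 143 PETs at day 3, against 85 and 88 at day 0, and a log2 fold change of -0.57 ± 0.15 (edgeR, adjusted p = 0.0015). That call was lost without replicate 2 of day 0 (adjusted p = 0.0748, edgeR). DESeq2 called neither of these anchors.

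The other 3 anchors did not pass. They were chr15:67086069-67097730 (-0.09 ± 0.10), chr15:67436723-67444951 in the SMAD3 body (-0.33 ± 0.28) and chr15:67544054-67548802 past SMAD3 (-0.38 ± 0.17), all as log2 fold changes from the edgeR fit, with adjusted p of 0.496, 0.373 and 0.0742. With library totals, where the backgrounds were 6.62% higher and 51.8% lower, all 3 passed as lower, with log2 fold changes of -0.65, -0.89 and -0.93 (edgeR, adjusted p = 6.08e-09, 0.00547 and 8.30e-07). The last also passed as lower without replicate 2 of day 3 (adjusted p = 0.0189, edgeR). The 4 higher anchors were called 1.59 to 3.28 times as wide at day 3 as at day 0. Each of the 9 held fewer CPM per called kb at day 3. In a fit on anchors whose widths differed by under 1.5 times, 4 anchors of the locus were tested, and 1 was higher and 1 lower, against backgrounds of 10.9% higher and 10.3% lower. The higher one was chr15:67049694-67084801 (0.28, edgeR, adjusted p = 0.00453), which is not among the 4 above, and the lower one was again chr15:67219108-67226609 (-0.41, edgeR, adjusted p = 0.0441). The part of width in these calls was not tested further.

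**Figure D3:**
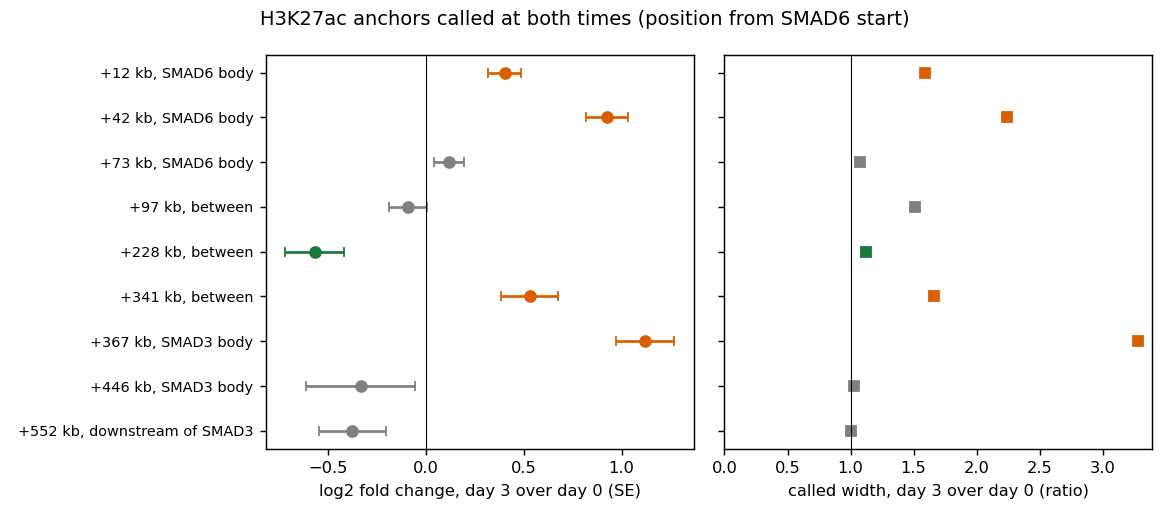
The 9 H3K27ac anchors of the locus called at both times, ordered by distance of their midpoint from the SMAD6 start in kb. On the left are log2 fold changes of day 3 over day 0 from edgeR with TMM (bars, SE; orange higher, green lower, grey not called), and on the right the ratio of called widths, day 3 over day 0; the SMAD3 start has both the highest change (1.12) and the highest width ratio (3.28).

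Windows of 50 kb have a fixed size, but a loop end is counted in the window that holds the midpoint of its called anchor, so the number and width of called anchors still enter. Of 10 windows in the locus, 5 were higher and 5 lower at day 3, against backgrounds of 60.7% higher and 19.5% lower over all tested windows. Over all windows the median log2 fold change was 1.41. A window with no called anchor midpoint on a day entered as 0 PETs, also in those backgrounds. The window from 67100000 to 67150000 held 0 and 0 PETs at day 3, against 95 and 86 at day 0. That from 67450000 to 67500000 held 72 and 71 at day 3, against 0 and 0 at day 0. Both calls follow from where anchors were called. The SMAD3 windows given next also hold more called anchor midpoints at day 3 than at day 0. The window from 67350000 to 67400000, which holds the SMAD3 start, had 1161 and 1137 PETs at day 3, against 60 and 60 at day 0, a log2 fold change of 2.34 ± 0.12. The next window had 504 and 516 PETs at day 3, against 29 and 21 at day 0, a log2 fold change of 2.43 ± 0.17. The midpoint of the SMAD6 start anchor fell in different windows on the 2 days, so the windows at SMAD6 are not read.

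Single loops could be tested for 70 of the 240 merged H3K27ac loops of the locus whose anchors were called at both times. At day 3, 4 were higher and 8 lower, against backgrounds of 7.08% higher and 6% lower over 17253 tested loops. With library totals, 3 were higher and 12 lower, against backgrounds of 3.25% and 18.7%. After all libraries were thinned to 253502 PETs, 39 loops were tested and 0 were called by edgeR in either direction, where 15 had an unadjusted p under 0.05 and the backgrounds were 0.773% higher and 0.32% lower. The lowest adjusted p among the named loops was then 0.0632 (edgeR), for the loop from the SMAD3 start to chr15:67326708-67344387, with a log2 fold change of 2.09. All 4 higher loops had both ends in the locus, where 27 loops were tested, and all 8 lower loops had an end outside it.

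A pair of the higher loops ended at the SMAD3 start. The loop of 25.8 kb to the anchor chr15:67326708-67344387 held 67 and 110 PETs at day 3, against 7 and 10 at day 0, with a log2 fold change of 2.10 ± 0.30 (edgeR, adjusted p = 4.16e-09). The loop of 269 kb to chr15:67086069-67097730, just past SMAD6, held 16 and 9 PETs at day 3, against 1 and 0 at day 0 (edgeR, adjusted p = 0.0175). That call was lost without either day 0 library (adjusted p = 0.102 without replicate 1 and 0.217 without replicate 2, edgeR).

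The other 2 higher loops lay within SMAD6. The anchor over its start joined the next one with 172 and 183 PETs at day 3, against 25 and 29 at day 0, a log2 fold change of 1.45 ± 0.19 (edgeR, adjusted p = 1.10e-10). That next anchor joined the third with 204 and 216 PETs at day 3, against 55 and 48 at day 0, a log2 fold change of 0.76 ± 0.16 (edgeR, adjusted p = 7.28e-05). The second of these log2 fold changes was 0.24 with library totals and then did not pass (edgeR, adjusted p = 0.283).

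The SMAD6 start and SMAD3 start anchors were joined by 12 and 16 PETs at day 3, against 4 and 4 at day 0. The log2 fold change was 0.53 ± 0.58 (edgeR, adjusted p = 0.604). The third SMAD6 anchor and the SMAD3 start were joined by 16 and 13 PETs at day 3, against 5 and 2 at day 0, with 0.77 ± 0.60 (edgeR, adjusted p = 0.436). No difference was detected in these 2 loops. When only loops between anchors of similar width were kept, 15 loops of the locus were tested and none was called by edgeR, and 0 had an unadjusted p under 0.05, against backgrounds of 1.31% higher and 1.66% lower.

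All 8 lower loops ended at a single anchor outside the locus, chr15:67647708-67683381 in 15q23, which is 160 kb past the SMAD3 body. It was singled out after its loops had been seen. Its loops to the locus held 107 and 119 PETs in ARID1A, 66 and 81 in H3K27ac at day 3, and 155 and 137 in H3K27ac at day 0. They made up 6.05% and 6.53% of the PETs of the locus in ARID1A, 1.89% and 2.19% in H3K27ac at day 3, and 14.1% and 15% in H3K27ac at day 0.

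Those 8 were all the tested loops from the locus to that anchor, and they started at both genes. The SMAD3 start joined it with 6 and 11 PETs at day 3, against 12 and 11 at day 0, a log2 fold change of -1.68 ± 0.48 (edgeR, adjusted p = 0.00716). The SMAD6 start joined it over 659 kb with 5 and 7 PETs at day 3, against 14 and 13 at day 0, a log2 fold change of -2.40 ± 0.49 (edgeR, adjusted p = 5.61e-05). The SMAD3-start call was lost without replicate 1 of day 3 or either replicate of day 0 (adjusted p = 0.0986 to 0.128, edgeR).

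The loop from chr15:67436723-67444951 in the SMAD3 body held 0 and 0 PETs at day 3, against 5 and 5 at day 0, and its call was lost without either day 3 library (adjusted p = 0.224 without replicate 1 and 0.220 without replicate 2, edgeR). The lower count was 4 of 8 without either day 0 library. The loop with the lowest adjusted p of the 8, from chr15:67544054-67548802, held 7 and 9 PETs at day 3, against 26 and 27 at day 0, a log2 fold change of -2.97 ± 0.37 (edgeR, adjusted p = 7.44e-12).

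The distal anchor itself was lower at day 3 and was called narrower. Over all its loops it held 944 and 907 CPM in ARID1A, 142 and 144 CPM in H3K27ac at day 3, and 2019 and 2071 CPM in H3K27ac at day 0. Its own log2 fold change for H3K27ac was -2.93 ± 0.11 (edgeR, adjusted p = 5.36e-33). It was 9275 bp wide at day 3, against 35673 bp at day 0, and the part of that width was not tested. Of its PETs, 50% and 57.4% went to the locus in H3K27ac at day 3, against 25.5% and 26.1% in H3K27ac at day 0.

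**Figure D4:**
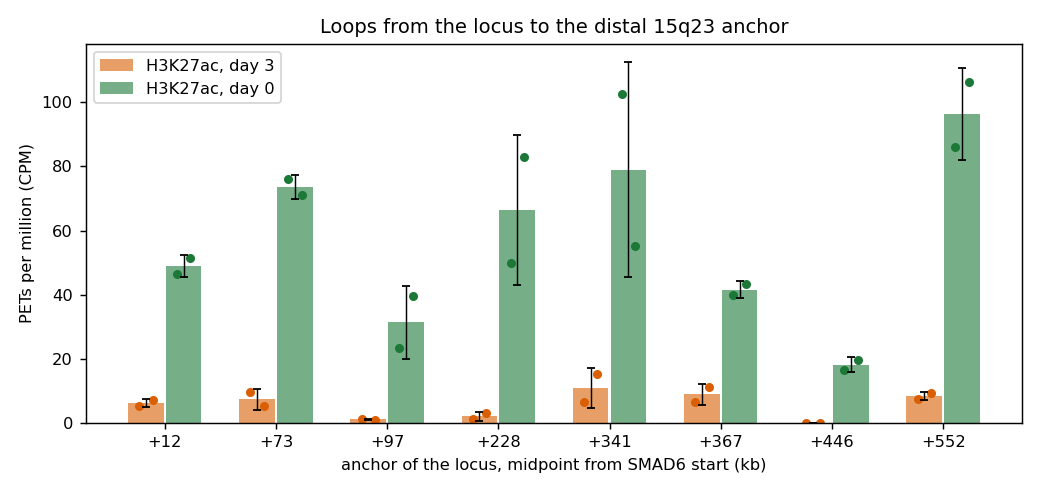
H3K27ac CPM in loops from 8 anchors of the locus to the distal 15q23 anchor, with group means (bars), SD (error bars, n = 2) and libraries (points), day 3 left of day 0. Anchors are named by the distance of their midpoint from the SMAD6 start in kb. Every mean is lower at day 3, and the anchor at +446 kb had 0 PETs in both day 3 libraries.

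The ARID1A pair lay between the genes in a stretch with no H3K27ac anchor on either day. Its members were chr15:67119711-67158387 and chr15:67159610-67198308, separated by 1223 bp and 78.6 kb long together. The first held 388 and 422 PETs, or 897 ± 7.90 CPM, and the second 326 and 370 PETs, or 770 ± 30.0 CPM (SD, n = 2 each). Of the other ARID1A anchors in the locus, only that on SMAD6 held more PETs than these. Both are wide, and per called kb they held 23.2 and 19.9 CPM, against 10.5 CPM for the SMAD6 anchor and 35.9 CPM for the narrower chr15:67198837-67202884. These values are a description, since the locus was chosen by this pair. Of the 20 ARID1A anchors of the locus, 5 overlapped no H3K27ac anchor, so this trait is not limited to the pair. The others were chr15:66983203-66986281 before SMAD6 (29 and 27 PETs), chr15:67294817-67300045 between the bodies (30 and 41 PETs) and chr15:67481375-67491477 on the SMAD3 body (58 and 49 PETs). The share of ARID1A anchors without H3K27ac over the genome was not computed.

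H3K27ac anchors of day 0 stood close to both edges of the pair. The one before it, chr15:67111057-67117729, ended 1982 bp from the pair and held 95 and 86 PETs at day 0. The one after it, chr15:67198837-67202884, began 529 bp past the pair, held 75 and 56 PETs at day 0, and had the same coordinates as an ARID1A anchor with 67 and 64 PETs. Neither was called in H3K27ac at day 3, when the nearest anchors stood 22 kb before and 13.1 kb after the pair.

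SMAD6 took the largest share of the contacts of the first anchor, while those of the second were spread over several places. The 3 loops with most ARID1A PETs in the locus were SMAD6 to the first anchor (178 and 200 PETs, 92.3 kb), the first to the second (66 and 83 PETs, 39.9 kb) and SMAD6 to the second (66 and 69 PETs, 132 kb). The SMAD6 anchor in these loops is 115 kb wide, so the position of the contact within SMAD6 is not resolved. It ends 15.4 kb before the pair, while the midpoints of the pair lie 219 and 179 kb before the SMAD3 start. The shares that follow are not adjusted for distance or anchor width. Of the PETs of the first anchor, 45.9% and 47.4% went to SMAD6 and 2.84% and 2.61% to SMAD3. Of those of the second, 20.2% and 18.6% went to SMAD6 and 4.60% and 4.32% to SMAD3. The other anchor of the pair took 20.2% and 22.4% of the PETs of the second, other anchors between the bodies took 29.1% and 24.9%, and anchors outside the locus took 23.6% and 27.6%.

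**Figure D5:**
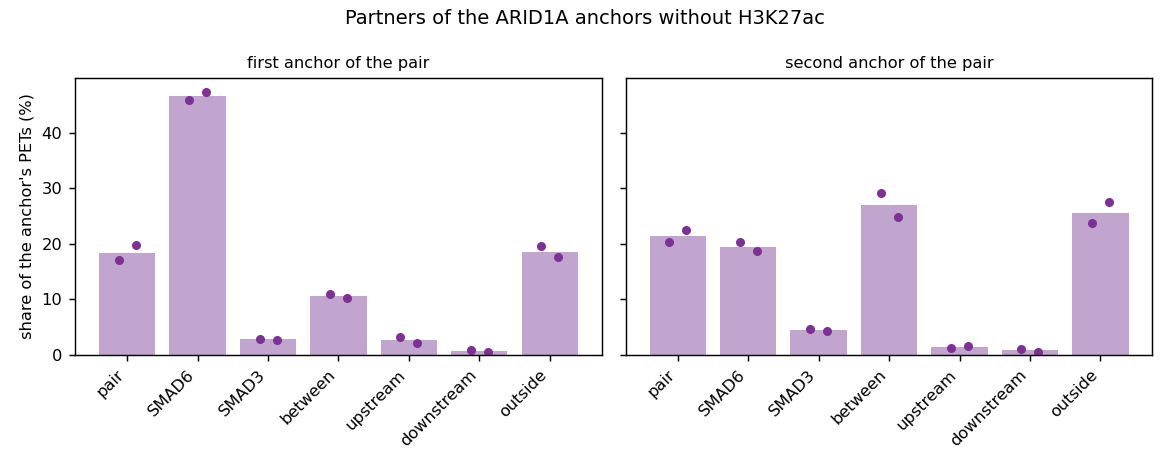
Share of the ARID1A PETs (%) of each anchor of the pair by where the partner anchor lies, as the mean of 2 libraries (bars) and each library (points). SMAD6 takes 45.9% and 47.4% for the first anchor and 20.2% and 18.6% for the second, while SMAD3 takes under 5% for both. Shares are not adjusted for distance or anchor width.

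Loops of H3K27ac passed over the pair. Loops with one end on each side of it held 12.9% and 12.9% of the PETs of the locus in ARID1A, 20.6% and 17.9% in H3K27ac at day 3, and 24.5% and 23.5% in H3K27ac at day 0.

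Reach also differed. The PET-weighted median span of loops of the locus was 145 and 153 kb in ARID1A, 95.3 and 86.7 kb in H3K27ac at day 3, and 152 and 130 kb in H3K27ac at day 0. Loops with both ends in the locus held 53.6% and 52.2% of its PETs in ARID1A, 66.1% and 65.7% in H3K27ac at day 3, and 50.9% and 53.2% in H3K27ac at day 0. Listed H3K27ac loops at day 3 were thus the shortest and stayed within the locus most often, with no overlap with either other group. Both measures depend on which anchors were called. PETs joining SMAD6 anchors to each other were 621 and 663 in H3K27ac at day 3, and 196 and 180 at day 0. The single SMAD6 anchor in ARID1A gave 0 and 0. Within SMAD3 they were 452 and 444 in H3K27ac at day 3, against 3 and 3 at day 0, from a single possible anchor pair. The part of anchor calling in these differences was not tested.

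Windows elsewhere in the genome with the most similar levels were found by Euclidean distance of log2(CPM + 10) over the 6 libraries, among 18011 windows of 50 kb. The SMAD3 start window held 609 and 501 CPM in ARID1A, 1250 and 1158 CPM in H3K27ac at day 3, and 199 and 237 CPM in H3K27ac at day 0. The nearest windows were in 7q22.1 (distance 0.55), 5q23.2 (0.66) and 6p21.2 (0.68). The window in 7q22.1, chr7:101250000-101300000, held 597 and 648 CPM in ARID1A, 1019 and 982 CPM in H3K27ac at day 3, and 219 and 249 CPM in H3K27ac at day 0. Likeness of levels is a description of these libraries, and the window of the SMAD6 start is left out because of its shifting midpoint.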

How the data were processed

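Each deposited file lists anchor pairs with a whole-number count of PETs joining them, raw and not normalised by the authors as far as the values show, and a deposited value from 0 to 1. The deposited value may be a p-value or a q-value, which the files leave unsaid, and it served only as a threshold of 0.01 in an alternative. HiC-Pro, Bowtie2 and hg19 are named in the submitters' processing notes; how loops and anchors were called is not given in the sources used here. Reads were 150 bp paired, per the labels' protocols. The files do not say whether coordinates count from 0 or 1.

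Groups and replicate numbers came from the sample titles. Anchors of the 4 H3K27ac libraries overlapping by 1 bp or more were merged into consensus anchors; this set, and the limit to anchors called at both times, were settled with the files in view. The members, lists and comparisons were chosen with earlier results of these data known. PETs per anchor (10 or more in at least 2 libraries), loop (4 or more) and 50 kb window entered the edgeR quasi-likelihood test (edgeR 4.0.16, R 4.3.3), with TMM and Benjamini-Hochberg adjustment over the whole table. The alternatives were DESeq2 1.42.0, library totals, no filter, a replicate block, thinning to 253502 PETs, the 0.01 threshold, all merged features, anchors of similar width, other window sizes, merging over all 6 libraries and leaving out each library. Library values were compared with an exact permutation test in scipy 1.17.1.

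Named features were the 2 genes, anchors on or between their bodies, loops joining the bodies, the ARID1A pair and the 6 loops with most PETs per group. The distal anchor was added after its loops were seen. A list of TGF-beta pathway genes and the SMARCB1 gene itself were not analysed here, since they needed an hg19 annotation. On simulated data, changes of 2-fold and 4-fold were recovered for 81% and 88% of anchors, 22% and 52% of loops, and 50% and 78% of windows. Power was thus lowest for loops, in a simulation with the same dispersion for every feature and no split by PET count. False calls were 5.59% of the calls for anchors, 1.33% for loops and 3.03% for windows. Intervals from counts would cover counting error only.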

Additional observations from a re-analysis of the deposited data

How the results depend on the processing

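SD and SE rest on 2 libraries a group, and anchors not called in a group were not measured there, so the alternative with all merged features compares called with uncalled regions. Windows without a called anchor midpoint on a day do so too. At anchors, called higher numbered 4 and called lower 1. Called higher became 2 with library totals, 13 with all merged features (of 21, where 65.5% of all such anchors were higher), 1 with anchors of similar width (of 4; it is chr15:67049694-67084801, which is none of the 4 called otherwise) and 2 with anchors merged over all 6 libraries (of 6), the last an alternative added after seeing the data. Called lower became 0 with DESeq2, where 5 of 9 anchors had an unadjusted p under 0.05, 5 with library totals, 0 at a deposited value of 0.01 or less, where 4 of 8 had an unadjusted p under 0.05, and 6 with all merged features (16% of all such anchors were lower). Leaving out each library gave 3 to 4 higher and 0 to 2 lower anchors.

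The log2 fold change turned at chr15:66989913-67023726 to -0.15 and at chr15:67326708-67344387 to -0.024 with library totals. At chr15:67049694-67084801 it turned to -0.44 with library totals, -0.12 at the 0.01 threshold and -0.34 with all merged features, and at chr15:67436723-67444951 it turned to 0.135 with all merged features. The loop joining the SMAD6 start to the SMAD3 start turned to -0.42 after thinning. The SMAD3 start anchor stayed higher and past the threshold in every alternative that tested it, from 0.57 with library totals to 1.39 with all merged features. The fit on anchors of similar width did not test it, since it was called 3.28 times as wide at day 3. Merging over all 6 libraries joined it to an ARID1A anchor with other coordinates, so that alternative is not counted for it.

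Of the loops, 4 were higher and 8 lower. Called higher became 0 after thinning (of 39 tested by edgeR, where 15 had an unadjusted p under 0.05) and 0 with anchors of similar width. It became 13 at the 0.01 threshold (of 47, background 32.1%) and 89 with all merged features (of 165, background 59%). Called lower became 5 with DESeq2, 0 after thinning, 22 with all merged features (background 8.44%) and 0 with anchors of similar width. Library totals gave 3 higher and 12 lower. Leaving out each library gave 3 to 4 higher and 4 to 7 lower loops. Windows, 5 higher and 5 lower, became 3 of 9 higher at the 0.01 threshold (background 46.5%). They became 9 of 17 higher with 25 kb (background 62.5%) and 2 of 6 higher with 100 kb (background 56.8%).

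No shared deviation of same-numbered libraries was detected (correlation 0.00136 over 7262 anchors). Such a correlation cannot tell whether these libraries were prepared together, and the main fits used no pairing. With a replicate block 5 loops of the locus were lower and 3 higher, the anchor counts were 4 higher and 1 lower, and over all loops 191 were higher and 172 lower, against 1221 and 1036 without the block.

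For ratios of library values, day 3 over day 0 in H3K27ac, the share of the locus was 1.04 and became 1.02 after thinning, 1.16 at the 0.01 threshold and 1.32 with both ends in the locus. The ratio for loops joining the bodies became 2.47 after thinning and 6.57 at the 0.01 threshold, and 2.79 to 3.52 without single libraries. The SMAD3 ratio became 6.44 at the 0.01 threshold and 7.55 with both ends in the locus. The SMAD6 ratio became 0.835 after thinning, 1.23 at the 0.01 threshold and 0.911 with both ends in the locus. For ARID1A over H3K27ac at day 3, given as a description, the share became 1.56 at the 0.01 threshold and 0.848 with both ends in the locus, the joining loops 0.473 at the 0.01 threshold, SMAD3 0.777 at the 0.01 threshold and 0.555 with both ends in the locus, and SMAD6 0.677 after thinning, 1.02 at the 0.01 threshold and 0.578 with both ends in the locus. Except where a setting tests fewer or other features by its construction, the cause was not tested.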
